A study of Homo sapiens with 36 samples.

Results

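The genes described here encode 10 abundant proteins that hepatocytes secrete into plasma: albumin (ALB), alpha-fetoprotein (AFP), transthyretin (TTR), transferrin (TF), alpha-2-HS-glycoprotein or fetuin-A (AHSG), alpha-1-antitrypsin (SERPINA1), alpha-1-antichymotrypsin (SERPINA3), the orosomucoids ORM1 and ORM2, and haptoglobin (HP). They were chosen by symbol for this shared role, with earlier results of these data known. Each had 1 of the 18932 rows of the count table. All 10 passed the filter on low counts.

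RNA was sequenced from HepG2, a human hepatoma line, supplemented for 6 h or 24 h with docosahexaenoic acid (DHA, an omega-3 fatty acid, 50 µM), propionate (PRO, a short-chain fatty acid, 70 µM), protocatechuic acid (PCA, a metabolite of anthocyanins, 20 µM), DHA + PRO or DHA + PCA, or of vehicle (Ctrl). The 6 treatments at both times gave 12 groups of 3 independent experiments and 36 samples. Every group, controls included, was kept in serum-free DMEM, with DHA given as a complex with bovine serum albumin (BSA, 0.5%). According to the paper, controls were given BSA, ethanol and DMSO in matching amounts. It does not say whether PRO or PCA alone came with BSA, and these groups count among the samples without DHA. Each sample was RNA pooled from 3 culture replicates of an experiment, so that p-values measure the spread between experiments in a single cell line and not between donors. The comparisons asked whether DHA, alone or with PRO or PCA, changed the transcripts, and how they differed between 6 h and 24 h.

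Plasma carriers bind and move hormones, metals, lipids and drugs, and the liver makes most of them. In inflammation, interleukin-6 and interleukin-1 raise the hepatic output of positive acute-phase proteins, among them ORM1, ORM2, SERPINA1, SERPINA3 and HP, while the negative ones, among them ALB, TTR, TF and AHSG, fall. AFP is the fetal relative of albumin, silent in adult liver and made again by many hepatomas. Transcription of these genes depends on liver-enriched factors such as HNF1 and C/EBP, and the acute-phase response also uses STAT3.

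In the deposited hg19 coordinates ALB (chr4:74269972-74287129) and AFP (chr4:74301936-74321502) were neighbours on the plus strand. ORM1 (chr9:117085303-117088759) and ORM2 (chr9:117092069-117095536) also lay side by side, and their sequences are so alike that reads may have been shared between them. SERPINA1 (chr14:94843084-94857029, minus strand) and SERPINA3 (chr14:95078714-95090390) belong to the serpin cluster of chromosome 14. TF (chr3:133464977-133497850) and AHSG (chr3:186330850-186339107) were on chromosome 3, TTR (chr18:29171730-29178986) was on chromosome 18, and HP (chr16:72088508-72094955) preceded its near copy HPR (chr16:72097125-72111145). Each row counted reads over the exons of 1 RefSeq transcript.

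RefSeq promoter sequences (GRCh38.p14) were given for 7 of the 10 genes, and those of ALB, AFP, ORM1 and SERPINA3 are shown because, between the 2 times, ALB did not pass the test, AFP rose, and ORM1 and SERPINA3 fell. Each line is the 250 bases before the annotated start, 5′ to 3′ on the plus strand. Capitals mark matches on either strand to the HNF1 core GTTAAT, the C/EBP letters TTNNGCAA, the STAT letters TTCNNNGAA, the acute-phase letters CTGGGAA or the TATA box TATAAA. The windows are chr4:73404037-73404286 for ALB, chr4:73435971-73436220 for AFP, chr9:114322848-114323097 for ORM1 and chr14:94612141-94612390 for SERPINA3.
ALB: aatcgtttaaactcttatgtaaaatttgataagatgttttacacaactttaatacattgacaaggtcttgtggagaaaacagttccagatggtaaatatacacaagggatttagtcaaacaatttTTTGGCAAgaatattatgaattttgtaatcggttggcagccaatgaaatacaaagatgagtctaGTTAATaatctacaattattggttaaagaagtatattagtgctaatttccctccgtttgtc
AFP: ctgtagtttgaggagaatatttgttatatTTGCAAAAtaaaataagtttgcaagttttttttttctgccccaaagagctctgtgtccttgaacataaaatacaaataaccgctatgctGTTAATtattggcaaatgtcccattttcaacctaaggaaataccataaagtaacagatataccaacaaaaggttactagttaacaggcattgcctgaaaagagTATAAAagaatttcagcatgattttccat
ORM1: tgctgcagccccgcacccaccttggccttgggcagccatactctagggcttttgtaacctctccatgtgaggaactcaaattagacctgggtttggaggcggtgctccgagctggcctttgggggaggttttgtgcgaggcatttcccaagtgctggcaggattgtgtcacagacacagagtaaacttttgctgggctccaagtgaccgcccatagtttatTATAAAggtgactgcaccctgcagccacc
SERPINA3: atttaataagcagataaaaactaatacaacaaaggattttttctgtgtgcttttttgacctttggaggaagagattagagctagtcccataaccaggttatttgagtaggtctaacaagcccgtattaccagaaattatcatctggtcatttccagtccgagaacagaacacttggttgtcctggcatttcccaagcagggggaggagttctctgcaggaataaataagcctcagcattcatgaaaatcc
The HNF1 core lay 61 to 56 bases before the start of ALB and 132 to 127 before that of AFP, and 6.23% of the 35116 promoters in the RefSeq table held it. C/EBP letters stood 125 to 118 bases before the ALB start and 221 to 214 before the AFP start, against 9.05% of all promoters. AFP and ORM1 both had TATAAA 29 to 24 bases before the start (10.7% of all promoters). Neither the STAT letters (6.57% of all promoters) nor CTGGGAA (9.15%) occurred in the windows of the 7 genes, and SERPINA3 held no match to any of the letters searched. The other matches were C/EBP letters in AHSG (59 to 52 bases before the start) and in 1 of the 2 entries of TF (98 to 91), and the HNF1 core in 1 of the 2 entries of SERPINA1 (76 to 71). No promoter entry was given for TTR, ORM2 or HP. These matches describe letters in a window and are not evidence of binding.

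Total counts ran from 4659744 to 42326734 per sample (median 7034007). Replicate 2 of DHA + PRO at 24 h was the deepest, and the other 24 h libraries lay between 5617341 and 8657882. The 10 genes together took 4.49% to 5.26% of all counts at 6 h and 4.99% to 5.97% at 24 h. All 8 hepatic markers checked had a median above 10 CPM (counts relative to the library total, scaled by TMM), whereas 8 of 10 markers of leukocytes, endothelium, fibroblasts and bile duct had a median under 1 CPM. The exceptions were SOX9 and CD68.

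Within a library the genes spanned a wide range of levels. ALB, the main carrier of fatty acids in plasma, had the highest count of all genes in each of the 36 libraries. AFP ranked 3 to 6, SERPINA1, the main inhibitor of neutrophil elastase, 4 to 8, TF, the carrier of iron, 8 to 12, and AHSG, an inhibitor of mineral deposition, 10 to 16. Per length, as CPM divided by the counted kilobases (RPKM), the median level over the 18 samples of 6 h was 11689 for ALB, 3488 for AFP, 2026 for AHSG, 1578 for SERPINA1 and 1490 for TF. The other genes were far lower on the RPKM scale at 6 h, with medians of 407 for ORM1, 370 for ORM2, 210 for SERPINA3, 110 for HP and 85.3 for TTR. At 24 h the order of the less abundant genes had changed, and TTR, at a median of 254 RPKM, stood above ORM1 (200), ORM2 (196), HP (52.0) and SERPINA3 (43.9).

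**Figure D1:**
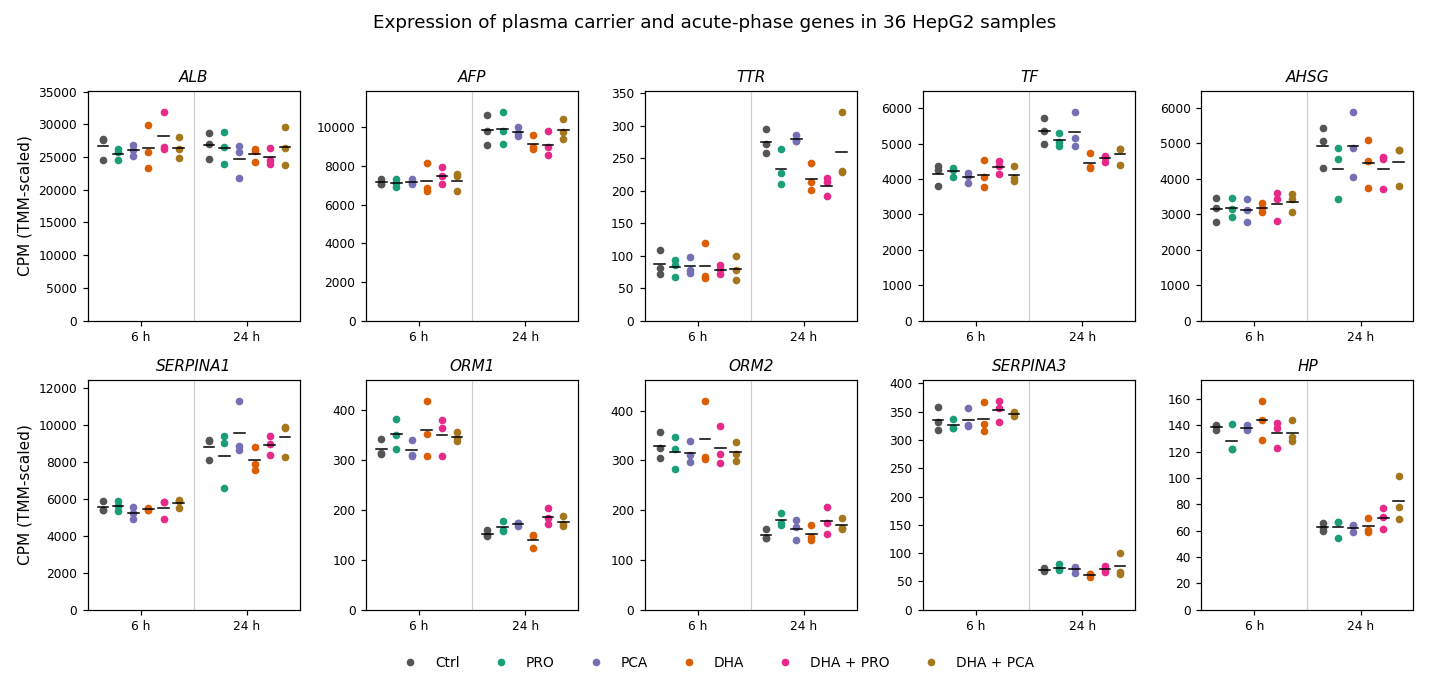
Expression of each gene in the 36 samples, as CPM scaled by TMM (vertical axes start at 0); points are single samples coloured by treatment and black lines are means of 3. SERPINA3, HP, ORM1 and ORM2 sit lower and TTR, SERPINA1 and AFP higher at 24 h than at 6 h under every treatment, and ALB overlaps between the times.

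Culture time was accompanied by opposite changes among the 10 genes. Without DHA (Ctrl, PRO and PCA, 9 samples at each time), TTR, SERPINA1, AHSG, AFP and TF rose from 6 h to 24 h and SERPINA3, HP, ORM1 and ORM2 fell, by the quasi-likelihood test of edgeR, adjusted over all genes after Benjamini and Hochberg. A gene was called at an adjusted p of at most 0.05 with an average log2 CPM above 0, and 9 of the 10 genes were called where 48.4% of all 12046 genes tested were (24.3% higher and 24.1% lower). These shares are a description, since the 10 genes were chosen with earlier results of these data known. No sample of the 10 was below 54.5 CPM (HP), while the 48.4% also covers genes with far fewer counts. In 8 of the 10 the samples of the 2 times did not overlap, against 11.3% of all genes. Over all genes tested the log2 fold change had a median of -0.01. CPM is a share of all counts, and in a bulk sample fewer cells making a transcript and less transcript per cell cannot be told apart. Time with the supplement or vehicle and time in serum-free medium cannot be told apart in this design.

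Among the carriers, TTR, which carries thyroxine and retinol-binding protein, changed most. It measured 67.5 CPM in the lowest, 81.5 in the median and 109 in the highest of the 9 samples without DHA at 6 h, and 210, 272 and 296 at 24 h. Every 24 h sample was above every 6 h sample. The mean rose from 84.4 ± 13.5 to 263 ± 27.7 CPM (SD, n = 9), a log2 fold change of 1.63 (SE 0.10, edgeR adjusted p = 6.46e-15).

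ALB, in contrast, showed no detectable difference between the times. Its lowest, median and highest samples without DHA were 24484, 26075 and 27823 CPM at 6 h and 21851, 26585 and 28888 CPM at 24 h, so that the 24 h range enclosed the 6 h range. The log2 fold change was -0.0048 (95% interval -0.12 to 0.11, edgeR adjusted p = 0.954). Its sign depended on scaling, from -0.01 to 0.03 across the alternatives.

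AFP lay between 6926 and 7336 CPM at 6 h (median 7098) and between 9059 and 10783 at 24 h (median 9806) without DHA. The times did not overlap, and the log2 fold change was 0.46 (SE 0.05, edgeR adjusted p = 2.06e-09). The neighbours ALB and AFP thus differed in their time course.

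For AHSG the lowest, median and highest samples without DHA were 2781, 3145 and 3456 CPM at 6 h and 3435, 4867 and 5884 CPM at 24 h. Only the lowest 24 h sample, replicate 1 of PRO, reached into the 6 h range. The log2 fold change was 0.58 (SE 0.08, edgeR adjusted p = 2.82e-07).

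TF rose least of the called genes, from a median of 4159 CPM at 6 h (range 3816 to 4381) to 5173 at 24 h (4928 to 5891). The ranges did not overlap, and the log2 fold change without DHA was 0.35 (SE 0.05, edgeR adjusted p = 3.41e-07).

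Among the positive acute-phase genes, 4 of 5 fell and SERPINA1 rose. SERPINA1 measured 4903, 5419 and 5878 CPM in the lowest, median and highest samples at 6 h, and 6574, 9015 and 11285 at 24 h. The 24 h samples were all higher, with a log2 fold change of 0.70 (SE 0.06, edgeR adjusted p = 4.80e-11).

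SERPINA3, an inhibitor of cathepsin G and chymase, moved in the opposite direction to its relative SERPINA1. Its samples without DHA lay between 317 and 359 CPM at 6 h (median 327) and between 64.3 and 81.5 CPM at 24 h (median 72.3). The mean was 4.62-fold lower at 24 h, a log2 fold change of -2.21 (SE 0.07, edgeR adjusted p = 2.62e-23). SERPINA3 had the lowest p of all 12046 genes in each of the time comparisons run (in Ctrl, without DHA and with DHA).

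HP, which binds free haemoglobin, lay between 122 and 141 CPM at 6 h (median 137) and between 54.5 and 66.9 at 24 h (median 63.3), without overlap. The log2 fold change was -1.11 (SE 0.07, edgeR adjusted p = 1.48e-15). Reads of HP and HPR may have been exchanged, but the HPR row, at 46.3 ± 2.80 CPM at 6 h and 43.1 ± 2.92 CPM at 24 h (SD, n = 9), did not pass the test (log2 fold change -0.10, adjusted p = 0.169).

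The orosomucoids, carriers of basic drugs, fell by like amounts. ORM1 had a range of 308 to 383 CPM at 6 h and 147 to 178 CPM at 24 h, and its log2 fold change was -1.02 (SE 0.06, edgeR adjusted p = 4.92e-16). ORM2 had a range of 282 to 357 CPM at 6 h and 139 to 195 CPM at 24 h, with a log2 fold change of -0.97 (SE 0.07, edgeR adjusted p = 3.46e-13). Neither gene had overlapping times.

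**Figure D2:**
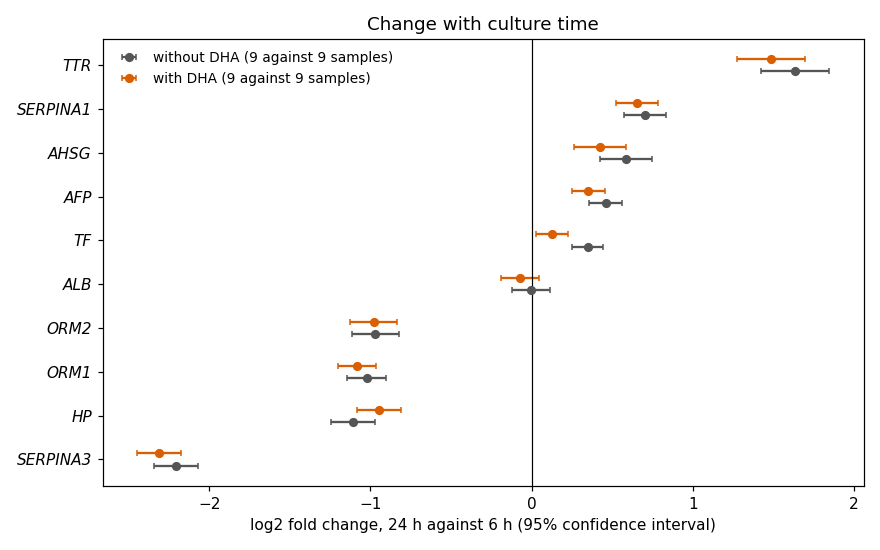
Log2 fold change from 6 h to 24 h of each gene without DHA (grey, Ctrl, PRO and PCA) and with DHA (orange, DHA, DHA + PRO and DHA + PCA), with 95% confidence intervals from edgeR. TTR at 1.63 and SERPINA3 at -2.21 without DHA mark the ends, and the ALB intervals include 0.

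The same 9 genes were called in Ctrl alone (3 against 3, background 26% of genes called) and with DHA (9 against 9, background 46%), in the same directions. With DHA the log2 fold changes were 1.49 for TTR, 0.65 for SERPINA1, 0.42 for AHSG, 0.35 for AFP, -0.95 for HP, -0.98 for ORM2, -1.08 for ORM1 and -2.31 for SERPINA3. TF rose by 0.13 with DHA (SE 0.05, edgeR adjusted p = 0.0291). That call was lost without a low-count filter (adjusted p = 0.0994), with only the groups compared in the fit (0.0609), and without any 1 of 8 of the 18 libraries (DHA 6 h replicates 2 and 3, DHA + PRO 6 h replicate 3, DHA + PCA 6 h replicates 2 and 3, DHA 24 h replicate 3, and DHA + PCA 24 h replicates 2 and 3), where it lay between 0.0502 and 0.0727. The log2 fold change was between 0.11 and 0.12 in all of these fits. When each 24 h sample was set beside the 6 h sample with the same treatment and replicate number, AFP, TTR, AHSG and SERPINA1 were higher at 24 h in 18 of 18, ORM1, ORM2, SERPINA3 and HP were lower in 18 of 18, TF was higher in 16 and ALB in 10.

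The library numbers in the sample titles form a lower and a higher series, of 23 and 13 libraries, and whether these were prepared or sequenced apart is not stated in the sources used here. In the 6 against 6 samples without DHA of the lower numbers and the 3 against 3 of the higher numbers, the 9 called genes kept their directions. The mean log2 difference of SERPINA3 was -2.24 among the lower and -2.15 among the higher numbers, and that of TTR was 1.54 and 1.87.

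Related genes were examined in lists chosen for this tissue. Of 11 other acute-phase genes tested, 8 rose and 2 fell without DHA, so the genes of this list did not fall as a group. Of those that rose, ITIH4 and LCN2 were low, with means of 2.02 and 1.22 CPM at 24 h. FGB, the beta chain of fibrinogen, fell (log2 fold change -0.75), as did SAA4 (-1.14), whereas FGA, the fibrinogen alpha chain, rose (0.36), as did LRG1 (0.73). The inducible genes CRP, SAA1, SAA2 and LBP had at most 4 counts in any library.

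Of 10 other plasma carriers tested, 4 rose and 2 fell. SERPINA6, the carrier of cortisol, rose by 1.48 and SHBG, the carrier of sex steroids, by 1.54 on the log2 scale. HPX, the carrier of haem, fell by 1.17 and RBP4, the partner of TTR in retinol transport, by 0.28. In the serpin cluster, 5 of 6 other genes rose and 0 fell, among them SERPINA12 (2.21), SERPINA11 (1.05) and SERPINA10 (0.49), and SERPINA3 was thus the only member of the cluster tested that was called lower.

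Of 12 genes of interleukin-6 and interleukin-1 signalling tested, 3 rose and 5 fell. The receptor IL6R fell by 1.08, IL1R1 by 0.62, LIFR by 0.49 and the transcription factor STAT3 by 0.34 on the log2 scale. Of 12 hepatic transcription factors, 3 rose and 2 fell, with FOXA3 at 0.41, ZHX2, known as a repressor of AFP, at 0.29, HNF4A at -0.25 and NR5A2 at -0.72.

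Of 11 genes of iron handling, 3 rose and 3 fell. HMOX1, which degrades haem, rose by 0.89, the transferrin receptors TFR2 and TFRC by 0.83 and 0.44, and the iron sensor IREB2 fell by 0.38 on the log2 scale. Of 6 oncofetal genes tested, PEG10 (0.43), DLK1 (0.46) and GPC3 (0.22) rose and 0 fell. Of 5 clearance receptors, FCGRT, which recycles albumin and IgG, rose (0.55), as did ASGR1 (0.19), and 0 fell. Of 9 genes of secretory cargo and folding, 0 rose and 4 fell, among them MCFD2 (-0.28), CANX (-0.26), PDIA3 (-0.14) and CALR (-0.12). Of the 8 hepatic markers 3 rose and 3 fell, and of 4 markers of other cell types tested 0 were called. The part of these genes in the changes of the 10 was not tested.

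**Figure D3:**
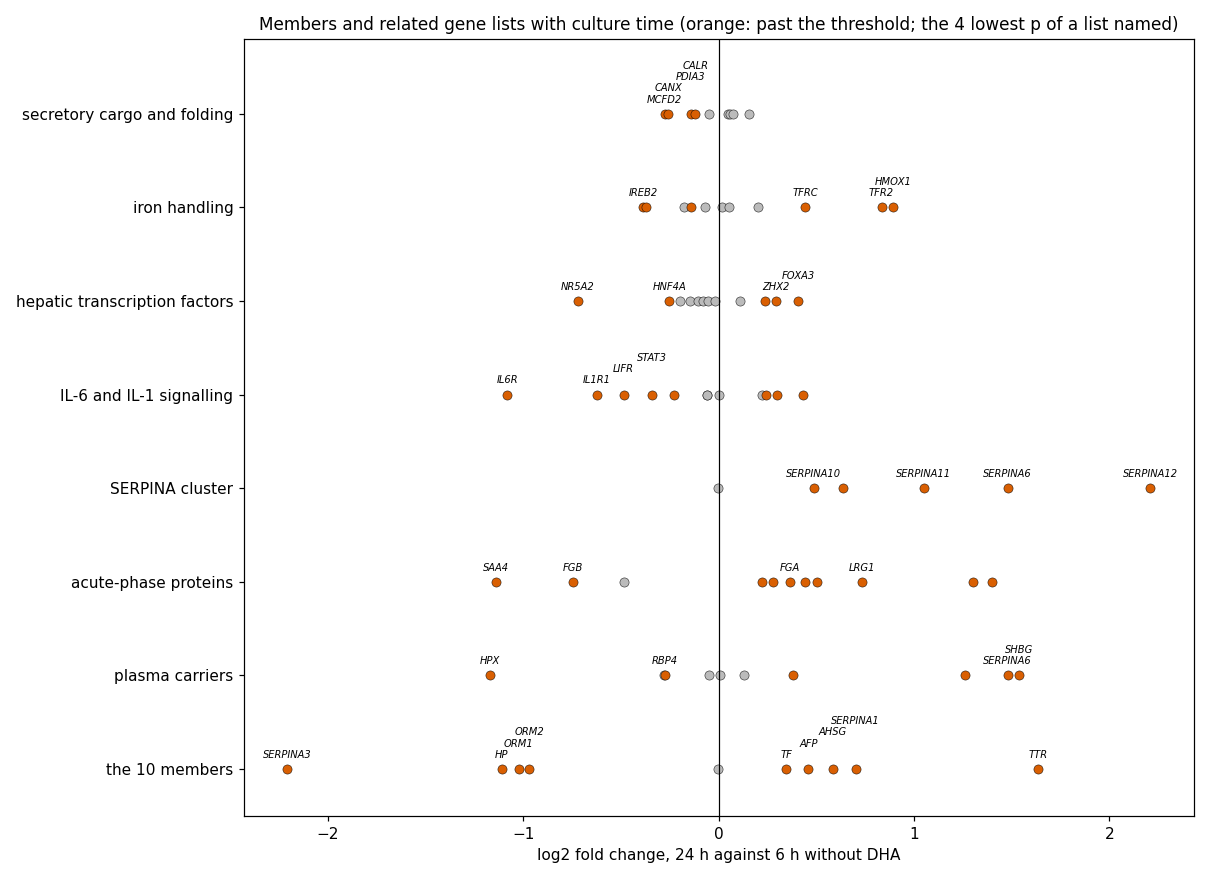
Log2 fold change from 6 h to 24 h without DHA of the 10 genes (bottom line) and of related lists; orange points passed the threshold, grey points did not, and up to 4 genes of a list with the lowest p are named. SERPINA3 is at -2.21 while 5 of 6 other genes of the serpin cluster passed the threshold above 0.

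At 6 h the treatments left no detectable difference in these transcripts. In the comparisons of the 5 treatments with Ctrl, edgeR called 0 of 50 tests of the 10 genes, DESeq2's Wald test also called 0, and 0 had an unadjusted p under 0.05, where 3.15% of all genes had one with DHA + PCA, 2.84% with DHA, 2.22% with DHA + PRO, 1.65% with PRO and 0.724% with PCA. The share of genes called was 0.0168% of 11872 genes called for DHA, DHA + PRO and DHA + PCA and 0% for PRO and PCA. The log2 fold changes lay between -0.17 (TTR with DHA + PRO) and 0.15 (ORM1 with DHA), and the 95% intervals reached 0.180 (TF and SERPINA3) to 0.441 (TTR) on either side of the estimate. In the pooled comparison of the 9 samples with DHA and the 9 without, 0 of the 10 genes were called at 6 h, against 0.202% of all genes, and 0 had an unadjusted p under 0.05, against 2.88%.

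At 24 h, the reported edgeR fit and DESeq2's Wald test again called 0 of 50 tests against Ctrl. This depended on the fit. With the replicate number as a block, edgeR called TF for DHA and TTR for DHA + PRO. TTR for DHA + PRO was also called with the library number series as a block and with only the groups compared. In the reported fit, 11 of the 50 had an unadjusted p under 0.05, where 8% of all genes had one with DHA + PRO, 7.46% with DHA + PCA, 6.02% with PRO, 5.95% with DHA and 3.82% with PCA. The shares of genes called were 0.193% of 11893 genes called for DHA, 0.395% for DHA + PRO, 0.286% for DHA + PCA and 0% for PRO and PCA. In 12 of the 50 the 3 treated and 3 control samples did not overlap, where 15% of all genes did not with DHA + PRO, 12.7% with DHA + PCA, 10.7% with DHA, 10.2% with PCA and 8.5% with PRO. An exact permutation test of 3 against 3 samples cannot give a p below 0.1.

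When the 9 samples with DHA at 24 h were set against the 9 without, 1 of the 10 genes, TF, was called, against 1.23% of all genes. In Ctrl the 3 samples measured 5369, 4992 and 5734 CPM of TF. PRO gave 5046, 4946 and 5299 CPM, and PCA gave 4928, 5891 and 5173 CPM. All of these were above every sample with DHA.

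With DHA the values of TF were 4307, 4330 and 4734 CPM, with DHA + PRO 4488, 4616 and 4651 CPM, and with DHA + PCA 4406, 4836 and 4852 CPM. TF was lower with DHA in 9 of 9 samples, and 0.311% of all genes separated in that direction. The mean was 4580 ± 208 CPM with DHA and 5264 ± 348 CPM without (SD, n = 9). The fitted level was 12.9% lower with DHA, a log2 fold change of -0.20 (95% interval -0.30 to -0.10, edgeR adjusted p = 0.0317). The mean log2 difference was -0.21 among the lower library numbers and -0.19 among the higher.

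The TF call was lost when any 1 of 9 of the 18 libraries was left out (Ctrl replicates 1 and 3, DHA replicates 1 and 2, PRO replicate 3, PCA replicate 2, DHA + PRO replicates 1 and 2, and DHA + PCA replicate 1), with adjusted p between 0.0556 and 0.0913 and log2 fold changes between -0.20 and -0.17. Against Ctrl alone TF did not pass the test, with log2 fold changes of -0.27 for DHA (edgeR adjusted p = 0.410), -0.23 for DHA + PRO (0.434) and -0.19 for DHA + PCA (0.623), comparisons that share the Ctrl samples. TF was called for DHA against Ctrl in 1 of 9 alternatives (adjusted p from 0.0455 to 0.542). PRO and PCA gave -0.08 and -0.0048. At 6 h the pooled difference was 0.01 (95% interval -0.09 to 0.12), and the change of the DHA effect from 6 h to 24 h, -0.22 (SE 0.07), had an unadjusted p of 0.00268 but an edgeR adjusted p of 1.00, with 0 of 12046 genes called, 3.05% of them at an unadjusted p under 0.05 and 6 called by DESeq2's Wald test.

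**Figure D4:**
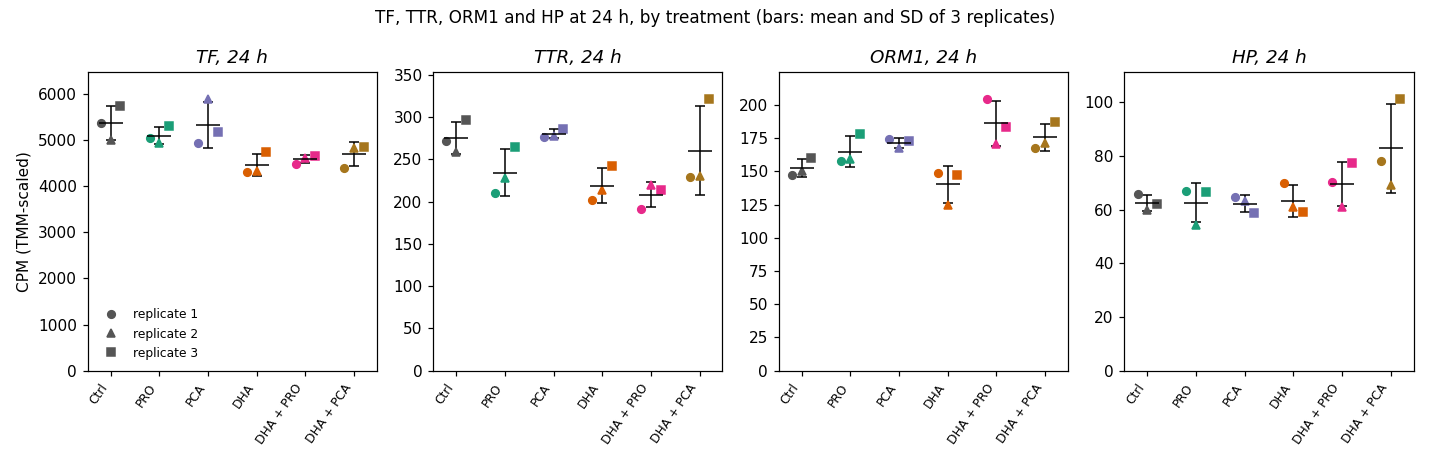
TF, TTR, ORM1 and HP at 24 h in each sample, as CPM scaled by TMM (axes start at 0); markers show replicates 1 to 3 and bars the mean and SD of 3. For TF the 9 samples with DHA lie between 4307 and 4852 CPM and the 9 without lie between 4928 and 5891.

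TTR was not called in a treatment comparison at 24 h in the reported edgeR fit of all 18 samples of that time. Ctrl gave 272, 258 and 296 CPM of TTR, DHA gave 201, 213 and 242, and DHA + PRO gave 192, 219 and 213, so that both treated groups lay below Ctrl. DHA + PCA gave 229, 230 and 321 CPM and overlapped with Ctrl. The log2 fold changes against Ctrl were -0.33 for DHA (edgeR adjusted p = 0.595), -0.40 for DHA + PRO (0.208) and -0.08 for DHA + PCA, and the pooled DHA difference was -0.20 (0.199). These values depended on the fit: TTR was called for DHA + PRO in 3 of 9 alternatives (adjusted p from 0.00912 to 0.220), and in the pooled comparison in 2 of 8 (0.0136 to 0.1999) and without replicate 3 of DHA + PCA (0.0188).

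ORM1 measured 147, 150 and 160 CPM in Ctrl at 24 h, 149, 124 and 148 with DHA, 204, 171 and 184 with DHA + PRO, and 168, 171 and 187 with DHA + PCA. Both combinations lay above Ctrl and above DHA, and DHA alone overlapped with Ctrl. Against DHA the log2 fold change was 0.40 for DHA + PRO (SE 0.09, edgeR adjusted p = 0.610) and 0.32 for DHA + PCA (SE 0.09, adjusted p = 0.999). In both comparisons 0 genes were called, and 4.43% and 2.32% of genes had an unadjusted p under 0.05.

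PRO alone gave 158, 159 and 178 CPM of ORM1 and PCA alone gave 175, 167 and 173. For ORM2 the pooled PRO difference was 0.24, and for ORM1 it was 0.25, both not called (edgeR adjusted p = 0.733 and 0.667, background 0.00841% of genes called), and ORM1 was called in 1 of 9 alternatives (adjusted p from 0.0415 to 0.948). The pooled PCA difference of ORM1 was 0.25 (adjusted p = 0.912, background 0%).

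HP was highest with DHA + PCA at 24 h, at 78.3, 69.2 and 101 CPM, against 65.8, 60.0 and 62.1 in Ctrl. These groups did not overlap, but the log2 fold change of 0.41 (SE 0.13) did not pass the test (edgeR adjusted p = 0.295). HP was 31.4% higher with DHA + PCA than with DHA (95% interval 9.68% to 57.4%). In the pooled comparison of samples with and without DHA at 24 h it was 14.1% higher (2.80% to 26.7%). Neither difference was called, and DHA alone against Ctrl gave 1.07% (-15.8% to 21.3%). Replicate 3 of DHA + PCA was the highest 24 h sample for HP, SERPINA3 (101 CPM) and TTR (321 CPM). The log2 fold changes of ALB, AFP, AHSG, SERPINA1 and SERPINA3 against Ctrl at 24 h lay between -0.21 and 0.13, none of them with an unadjusted p under 0.05.

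**Figure D5:**
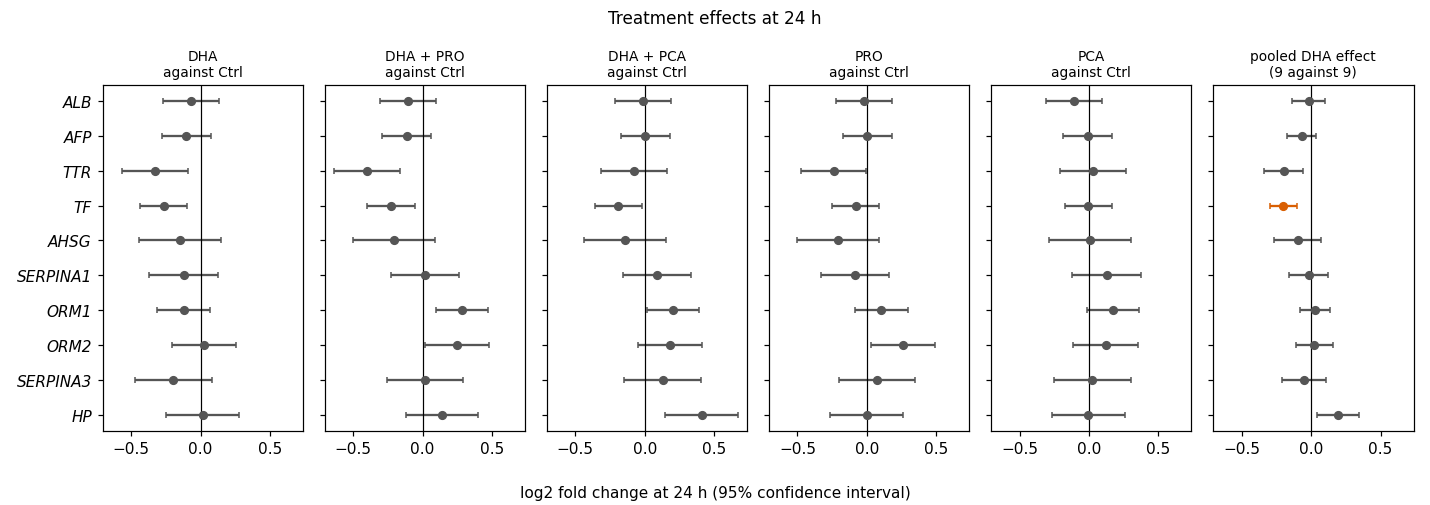
Log2 fold change at 24 h of each gene for the 5 treatments against Ctrl (3 against 3 samples) and for all samples with DHA against all without, with 95% confidence intervals from edgeR. The point in orange, TF at -0.20 in the pooled comparison, is the only value past the threshold.

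Ordered by group mean at 24 h, TF ran from Ctrl (5365 CPM) through PCA (5331), PRO (5097), DHA + PCA (4698) and DHA + PRO (4585) to DHA (4457), and the only neighbours in that order without overlap were PRO and DHA + PCA. SERPINA3 also had 1 such pair among its 5 neighbour pairs at 24 h, and the other genes had 0. At 6 h 0 neighbour pairs were separate for any of the 10 genes. The ratio of the highest to the lowest group mean at 24 h was between 1.08 (ALB) and 1.35 (TTR).

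The genes whose log2 CPM was most like that of each gene over the 12 group means were found by Pearson correlation over groups that share their time with 5 others. Over the 36 single samples the same pairs correlated less, from 0.303 (ALB with ZNF304) to 0.983 (SERPINA3 with FGL1). TF with DLK1 was at 0.680 and ORM2 with NIPAL3 at 0.746 over the single samples. The values below are those over the group means. TTR was closest to APOM (r = 0.998), SLC13A5 and TNFAIP3. HP was closest to FGB (0.997), BRAP and NR1H4, and SERPINA3 to KPNA2 (0.997), FGL1 and BIRC5. AHSG was closest to FOXA3 (0.995), CYC1 and BPIFB2, SERPINA1 to CD74 (0.993), F10 and MAGED2, and AFP to HGSNAT (0.991), GRHL1 and GABRE. ORM1 was closest to SPAG5 (0.994), CDC20 and EBNA1BP2, and ORM2 to NIPAL3 (0.996), EBNA1BP2 and NGRN. TF was closest to DLK1 (0.968), FADS2 and IL17B. ALB was closest to CPE (0.884), RBM39 and ZNF304. The other genes were called between the times and ALB was not, so the height of r cannot be compared between ALB and them.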

How the data were processed

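The deposited table holds raw counts of reads per RefSeq transcript, which the authors obtained with TruSeq v2 libraries (not strand-marking), alignment to hg19 with STAR (version not given in the sources used here) and the iRNA-seq pipeline. The deposited counted length and coordinates (other units) served only for RPKM and position. Groups came from the sample titles. edgeR 4.0.16 in R 4.3.3 was used with filterByExpr, TMM and the quasi-likelihood F test, in separate fits of the 18 samples of each time and a joint fit of 36 for differences between times, with Benjamini-Hochberg adjustment over all genes. CPM values share the joint TMM scale. The paper's ANOVA was replaced by this count test. Alternatives were DESeq2 1.42.0 size factors and Wald test, upper quartile scaling, scaling without the 10 genes, no low-count filter, only the groups compared, library number series (from the sample titles) or replicate number as a block, thinning of the deepest library, and leaving out each sample. The scripts were tested on simulated data. Named genes are the 10, up to 4 called genes with the lowest p per list, and the 3 likest genes. ITIH4 and LCN2 were named after their values were seen. The 10 genes and the lists were chosen with earlier results of these data known. Counts are reads without molecular identifiers. Over 630 sample pairs, chi-square divided by its degrees of freedom was at least 1.90, so no library was counted as a duplicate. Sequences came from RefSeq (GRCh38.p14), and figures were drawn with matplotlib 3.10.9.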

Additional observations from a re-analysis of the deposited data

How the results depend on the processing

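Across the 22 comparisons, the number of the 10 genes called equalled the reported number or was within 1.5 times of it in 404 recomputed counts and further from it in 17. The 404 include counts of 0 where the reported number was also 0, as it was in most comparisons, and these say little about stability. No fold change of a called gene reversed. For all samples with DHA against those without at 24 h, the count of called genes was 1, and it ran from 0 to 2 when single libraries were left out: 0 without each of the 9 libraries named for TF and 2 (TF and TTR) without replicate 3 of DHA + PCA. With the library number series as a block it was 2 (TF and TTR).

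The labels give the groups the same replicate numbers. Deviations from the group means correlated between same-numbered samples by 0.24 on average at 6 h and 0.15 at 24 h. These correlations exceeded 0.1 in 36 and 32 of 45 pairs. Between samples of different numbers in different groups the means were -0.118 and -0.0739. Same-numbered samples were thus more alike. The deposited column names also list the same culture numbers for a given replicate number in every group. According to the paper, the culture replicates pooled in a sample came from the same experiment. A replicate number therefore probably marks an experiment shared by the groups, although no label states this outright. The reported tests did not take the numbers as pairs and so left this probable pairing out, and some calls depended on this choice. The mean correlation of each sample with the samples of each number in other groups was also compared. It was highest for the sample's own number in 16 of 18 samples at 6 h and 17 of 18 at 24 h. With the replicate block at 24 h, the count was 1 for DHA against Ctrl (TF, adjusted p = 0.0455), 1 for DHA + PRO against Ctrl (TTR, 0.00912), 2 for all samples with DHA against those without (TF and TTR, 0.0136 for TTR) and 1 for the pooled PRO difference (ORM1, 0.0415), and it changed no other call of the 10. DHA + PRO against Ctrl also gave 1 (TTR) with the library number series block and with only the groups compared.

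Counts over all genes moved more. For all samples with DHA against those without they went at 24 h from 146 to 367 with the replicate block, 203 with the library number series block, 222 with DESeq2's Wald test and 223 without replicate 1 of PRO, and at 6 h from 24 to 64 with the replicate block. For DHA against Ctrl at 24 h they went from 23 to 77 with the replicate block, 49 without a low-count filter and 46 with the Wald test. The causes were not tested. With 3 samples a group, the 95% intervals against Ctrl at 24 h reached 0.170 (TF) to 0.296 (AHSG) on either side of a log2 fold change, and larger differences than these were also not called after adjustment over all genes (TTR -0.40, HP 0.41).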

Other observations

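Beside TF, HMOX1 was the only gene of the related lists called in a treatment comparison. In the 9 samples with DHA at 24 h it measured 86.0 ± 7.85 CPM against 69.0 ± 10.5 CPM in the 9 without (SD), a log2 fold change of 0.32 (SE 0.07, edgeR adjusted p = 0.0145), and the groups overlapped.

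Deviations of the samples from their group means, over the 36 samples, give another view of the 10 genes. The deviations of AHSG and SERPINA1 correlated by 0.80, those of ALB and TF by 0.78 and those of AFP and ORM2 by 0.73, while AHSG correlated by -0.43 with AFP and by -0.49 with ORM2. The near copies ORM1 and ORM2 correlated by only 0.16 in these deviations, against 0.99 over the 12 group means. These samples share libraries, depth and experiments, and the values are descriptions without a test.

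The albumin relatives AFM and GC were at or near 0: AFM had at most 22 counts and GC at most 6 in any library, and 30 of 36 libraries had 0 counts of GC. SERPINA2, the neighbour of SERPINA1, had at most 16 counts.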
